A study of Mus musculus with 6 samples.

Results

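Collagen genes were followed in mouse pancreas at E13.5 in embryos lacking the homeobox transcription factor Prox1. The mutant group held 3 pools labelled Prox1-nullyzygous (written Prox1 GFPCre/D in the design text) and the control group held 3 wildtype pools, all of the NMRI strain. Each pool combined 5 to 6 pancreata of one genotype and gave 1 mRNA library. A gene was counted as a collagen gene when its symbol had the form Col, a type number, the letter a and a chain number. This rule found 43 genes among the 23337 gene symbols counted, of which 9 encode fibrillar chains (types I, II, III, V and XI), 6 encode basement membrane chains (type IV) and 28 encode other collagens. One further chain, now called Col26a1, was listed under the older symbol Emid2 and lay outside the rule, at 143 ± 3.90 CPM (read counts scaled to a common library total) in mutants and 163 ± 13.4 CPM in controls (SD, n = 3 each), a difference that was not called (log2 fold change -0.19, SE 0.061, edgeR adjusted p = 0.1).

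Collagens are trimers of chains wound into a triple helix built from a repeating glycine motif, and they form most of the extracellular matrix protein of connective tissue. Fibrillar collagens make the cables of the interstitial matrix and are produced mainly by mesenchymal cells, whereas type IV collagen forms the sheet-like network of basement membranes beneath epithelia and around vessels. Most of the remaining collagens sit on fibril surfaces, form beaded filaments or short-chain networks, anchor basement membranes or span the cell membrane. Col24a1 and Col27a1 are fibril-type chains that were grouped with the other collagens here. In the developing pancreas the branching epithelium is surrounded by mesenchyme, and a basement membrane separates the compartments.

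The libraries held 16060424 to 17633867 counted reads each, so that 1 CPM stood for 15.9 to 17.5 reads. Prox1 itself stood at 93.2 ± 10.5 CPM in mutants and 105 ± 1.96 CPM in controls (SD, n = 3 each) and was not called (log2 fold change -0.17, SE 0.074, edgeR adjusted p = 0.235). The extent of the deletion in these alleles is not described in the labels, so the count is no check of genotype. Mutant pool 1 and control pool 3 held almost no Xist, the RNA of the inactive X chromosome, at 0.126 and 0.526 CPM, against 2014 to 2058 CPM in the other mutant pools and 2027 to 2812 CPM in the other control pools. They held the most Ddx3y, a Y chromosome gene, at 127 and 111 CPM. The other mutant pools held 39.3 to 40.5 CPM of Ddx3y and the other control pools 23.1 to 45.7 CPM. By these genes, mutant pool 1 and control pool 3 read as male and the other pools as mixed in sex. Control pool 2 stood apart in a smooth muscle gene, with 1209 reads of Myh11 against 37 to 73 in the other control pools and 38 to 104 in the mutant pools.

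The start regions of genes at the ends of the response are shown here from RefSeq on GRCm38.p6, the assembly also called mm10. Of the 43 genes, 35 matched the RefSeq promoter table, which had no entry for Col1a1, Col2a1, Col4a3, Col5a2, Col9a3, Col12a1, Col14a1 or Col22a1. Col8a1 and Col4a6 were among the genes that rose most, and Col9a1 and Col7a1 fell. Each run is the 250 bases before the annotated transcript start, 5′ to 3′ on the gene's own strand. They lie at chr16:57754738-57754987 (minus strand, Col8a1), chrX:141474077-141474326 (minus strand, Col4a6), chr1:24177360-24177609 (plus strand, the more upstream of the annotated Col9a1 starts) and chr9:108953336-108953585 (plus strand, Col7a1). Capitals mark the GC box GGGCGG and the CCAAT box on either strand.
Col8a1: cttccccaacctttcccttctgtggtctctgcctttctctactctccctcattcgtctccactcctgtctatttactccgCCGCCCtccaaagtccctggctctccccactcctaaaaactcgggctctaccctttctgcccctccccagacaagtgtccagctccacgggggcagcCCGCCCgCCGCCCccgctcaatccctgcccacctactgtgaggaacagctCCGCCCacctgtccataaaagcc
Col4a6: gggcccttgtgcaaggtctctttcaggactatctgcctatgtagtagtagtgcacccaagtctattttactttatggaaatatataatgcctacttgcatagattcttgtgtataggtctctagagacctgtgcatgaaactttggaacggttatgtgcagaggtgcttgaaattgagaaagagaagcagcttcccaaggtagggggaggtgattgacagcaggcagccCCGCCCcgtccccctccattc
Col9a1: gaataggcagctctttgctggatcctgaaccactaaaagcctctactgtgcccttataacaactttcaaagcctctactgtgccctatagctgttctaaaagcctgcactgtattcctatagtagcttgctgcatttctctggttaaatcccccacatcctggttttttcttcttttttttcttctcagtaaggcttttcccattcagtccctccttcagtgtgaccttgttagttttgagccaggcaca
Col7a1: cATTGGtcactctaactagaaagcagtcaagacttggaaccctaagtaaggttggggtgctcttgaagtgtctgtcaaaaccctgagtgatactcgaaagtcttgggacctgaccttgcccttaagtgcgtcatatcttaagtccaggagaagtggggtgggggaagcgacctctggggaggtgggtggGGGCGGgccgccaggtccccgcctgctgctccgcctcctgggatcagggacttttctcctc
The Col8a1 run held 4 GC boxes and the Col4a6 run 1, while the Col7a1 run held 1 GC box and 1 CCAAT box and the Col9a1 run held neither. The letters TATAAA and AACAAT were searched on both strands as well and were absent from these 4 runs. Over all 27025 genes with a promoter entry, 32.9% of windows of the same length held GGGCGG, 34.5% CCAAT, 12.97% TATAAA and 9.65% AACAAT. Of the 35 collagen genes with an entry, 21 held GGGCGG, 12 CCAAT, 5 TATAAA and 1 AACAAT. These matches describe letters in a window, not sites bound by a factor.

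Col4a1 and Col4a2 are transcribed head to head, and their annotated first exons overlap by 22 bases at chr8:11312805-11312826. The overlap is shown on the plus strand, in lower case throughout although it holds the GC box letters GGGCGG. Both genes rose by nearly the same amount, and a link of the rise to the overlap was not tested.
Col4a1 and Col4a2: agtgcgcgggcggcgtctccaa

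Across the family, more chains were called higher than lower in mutants, and the 3 called lower were 2 fibril-associated chains and the anchoring fibril chain. Of the 43 genes, 39 had enough reads to be tested, and Col10a1, Col28a1, Col4a3 and Col4a4 had at most 11 reads in any pool and were not tested. The call rule was an adjusted p under 0.05 in edgeR's quasi-likelihood test over all 14687 genes tested, which 7.95% of them met. By this test 9 collagen genes were higher in mutants (23.1% of those tested), where 3.67% of all genes tested were called higher, and 3 were lower (7.69%), where 4.28% of all genes were called lower. The median log2 fold change, mutant minus control, was 0.25 over the 39 collagen genes and 0.00055 over all genes tested, and 29 of the 39 had a positive value. Among the 28 collagen genes whose average log2 CPM reached 5 or more, 9 were called higher and 3 lower, while 3.89% and 2.93% of all genes at that level were called higher and lower. The mutant and control pools did not overlap for 22 of the 39 genes (56.4%), against 26.4% of all genes tested.

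The count of higher genes depended on the method and on single pools. DESeq2's Wald test called 16 collagen genes higher, and edgeR called 5 when control pool 1 was left out, 4 when mutant pool 2 was, 15 when mutant pool 3 was and 6 when both pools with almost no Xist were. Each library came from whole pancreata, so more cells of a collagen-producing type and more collagen RNA per cell cannot be told apart.

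**Figure D1:**
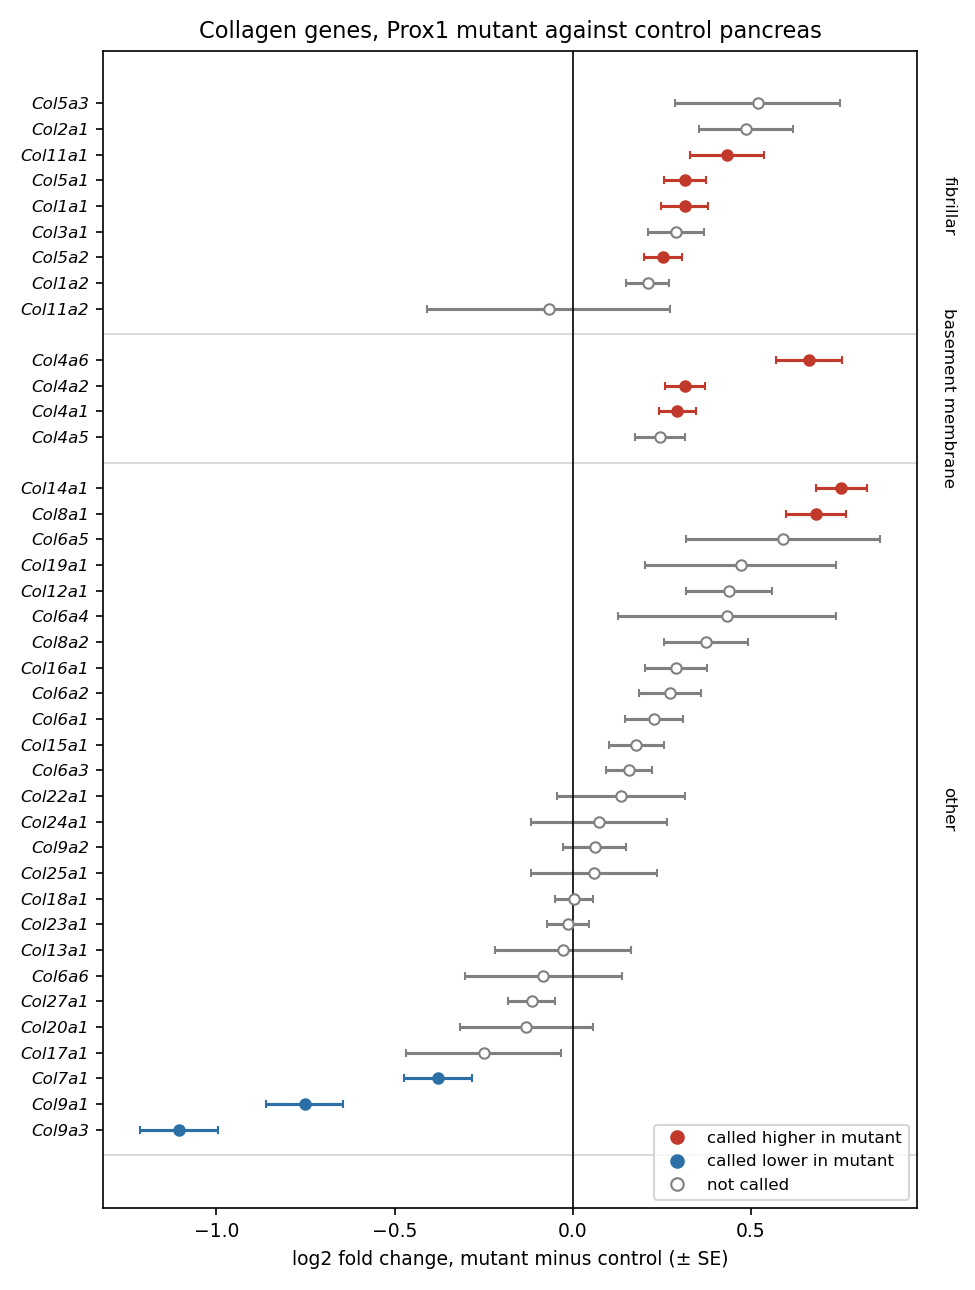
Log2 fold change (mutant minus control, x axis) with its standard error for the 39 tested collagen genes, grouped by class from top to bottom; filled points were called by edgeR and open points were not. All 4 tested type IV chains lie right of 0, and the lowest points are Col9a3 (-1.10), Col9a1 (-0.75) and Col7a1 (-0.38).

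Collagen transcripts took a larger share of all reads in every mutant pool than in any control pool. The share was 1.70%, 1.63% and 1.49% in mutant pools 1 to 3, against 1.40%, 1.36% and 1.36% in control pools 1 to 3. Fibrillar chains made up 1.09 ± 0.0725% of all counts in mutants and 0.911 ± 0.0196% in controls (SD, n = 3 each). Type IV chains made up 0.159 ± 0.0105% in mutants and 0.131 ± 0.000244% in controls, and other collagens 0.36 ± 0.0246% in mutants and 0.331 ± 0.00419% in controls. Mutant pool 1 had the highest value of all 6 pools for 22 of the 39 tested genes, and mutant pool 3 had the lowest of the mutant values for 24. The SD of the family's share was 0.107 percentage points among mutant pools and 0.0235 among control pools. Col1a1, Col1a2 and Col3a1 alone took 54.6% of the collagen reads in mutants and 53.8% in controls.

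**Figure D2:**
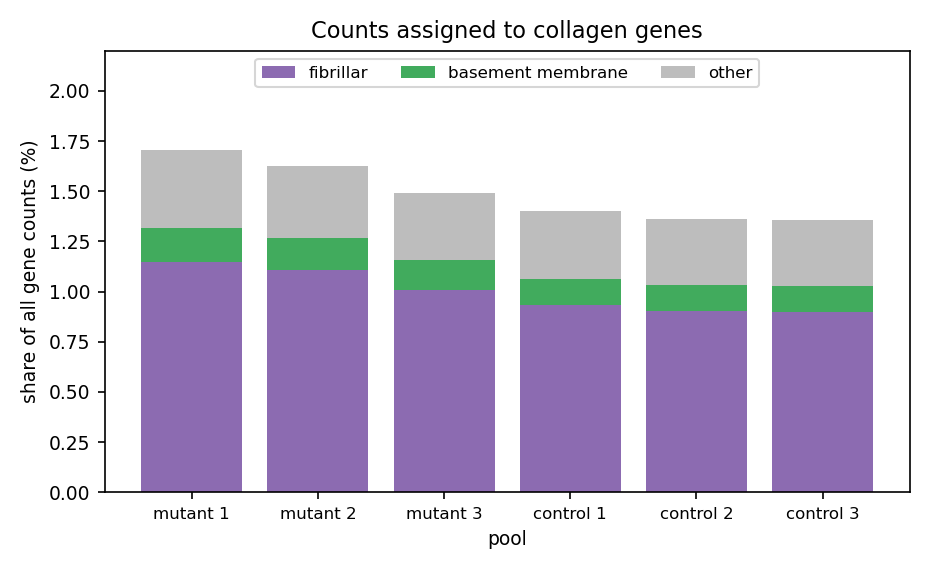
Share of all gene counts assigned to collagen genes (y axis, %) in each pool, stacked by class. The mutant totals run between 1.49% and 1.70%, and the control totals between 1.36% and 1.40%.

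Fibrillar collagens were the most abundant group, and 4 of the 9 rose in mutants while none was called lower. The fibril-type chains Col24a1 and Col27a1, grouped with the other collagens, were not called. Their log2 fold changes were 0.07 (SE 0.191, edgeR adjusted p = 0.89) and -0.12 (SE 0.066, edgeR adjusted p = 0.38). Per kilobase of exon, Col3a1 (type III, the fibril collagen of distensible tissues) had the highest level, at 750 ± 70.6 CPM per kb in mutants and 613 ± 47.3 CPM per kb in controls (SD, n = 3 each). Col1a2 (456 ± 33.5 CPM per kb in mutants, 394 ± 9.48 in controls) and Col1a1 (378 ± 25.05 CPM per kb in mutants, 304 ± 19.6 in controls), the chains of type I collagen, followed in that order. In both groups the mean of Col3a1 stood above that of Col1a2 by more than the summed SDs of these genes, and so did Col1a2 above Col1a1.

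Col1a1 (chr11:94936224-94953042) encodes the chain present in a pair of copies in each type I trimer. It stood at 2264, 2382 and 2087 CPM in mutant pools 1 to 3, against 1754, 1938 and 1724 CPM in control pools 1 to 3. Every mutant pool was above every control pool, and the log2 fold change was 0.31 (SE 0.0655, edgeR adjusted p = 0.0208). Col1a1 was no longer called when control pool 1 (edgeR adjusted p = 0.083), control pool 3 (0.059), mutant pool 1 (0.0612), mutant pool 2 (0.104) or both pools with almost no Xist (0.0867) were left out.

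Its partner chain Col1a2 stood at 2623, 2423 and 2266 CPM in mutant pools, against 2135, 2137 and 2048 CPM in control pools, without overlap. Its log2 fold change of 0.21 (SE 0.059) missed the threshold (edgeR adjusted p = 0.0664), although DESeq2 (adjusted p = 0.00484) and limma voom (adjusted p = 0.0458) called it. Col3a1 stood at 4519, 4248 and 3745 CPM in mutant pools, against 3618, 3115 and 3503 CPM in control pools. It also did not overlap, and it was not called (log2 fold change 0.29, SE 0.079, edgeR adjusted p = 0.0599), while DESeq2 (adjusted p = 0.00143) and edgeR without mutant pool 3 (adjusted p = 0.0358) called it.

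Type V and type XI chains join type I and type II fibrils and set the size at which fibrils start to grow. Col5a1 (chr2:27886425-28039514) stood at 1020, 986 and 920 CPM in mutant pools, against 802, 813 and 737 CPM in control pools, a log2 fold change of 0.31 (SE 0.059, edgeR adjusted p = 0.0127; 0.0664 without mutant pool 2). Col5a2 (chr1:45374321-45503282), the gene next to Col3a1, stood at 734, 676 and 662 CPM in mutant pools, against 603, 572 and 564 CPM in control pools. Both type V chains were higher in every mutant pool than in any control pool. The Col5a2 log2 fold change was 0.25 (SE 0.054, edgeR adjusted p = 0.0229), a call that ended when control pool 1 (edgeR adjusted p = 0.0524), control pool 3 (0.064), mutant pool 1 (0.0654), mutant pool 2 (0.0765) or both pools with almost no Xist (0.103) were left out.

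Col11a1 (chr3:114030540-114220718) was the fourth fibrillar gene that rose, at 88.8, 75.7 and 68.1 CPM in mutant pools, against 62.1, 59.0 and 51.2 CPM in control pools. Its log2 fold change was 0.43 (SE 0.103, edgeR adjusted p = 0.0369), a call that ended when control pool 1 (edgeR adjusted p = 0.0642), control pool 3 (0.101), mutant pool 1 (0.0886), mutant pool 2 (0.0943) or both pools with almost no Xist (0.114) were left out. Its groups did not overlap, unlike those of its partner Col11a2, which stood at 28.5, 29.7 and 25.4 CPM in mutant pools against 49.9, 20.9 and 16.8 CPM in control pools. One control pool thus lay above and the other controls below all mutant pools. Without control pool 1 the log2 fold change of Col11a2 turned from -0.07 to 0.56 (edgeR adjusted p = 0.0453).

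Col2a1, the chain of the cartilage fibril collagen, stood at 302, 376 and 383 CPM in mutant pools, against 207, 302 and 248 CPM in control pools. The lowest mutant pool and the highest control pool had nearly the same value, and Col2a1 was not called (log2 fold change 0.49, SE 0.132, edgeR adjusted p = 0.0596). Leaving out control pool 2 (edgeR adjusted p = 0.00929) or mutant pool 1 (0.0368), or using no filter on low counts (0.045), brought it past the threshold. Col5a3, the least abundant type V chain, stood between 2.80 and 3.46 CPM in mutants and between 1.52 and 2.57 CPM in controls and was not called (log2 fold change 0.52, SE 0.231, edgeR adjusted p = 0.242).

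Of the basement membrane class, 3 of 4 tested type IV chains were called higher in mutants and the other was not called. All 4 had no overlap between mutant and control pools, as did 26.4% of all genes tested. Col4a1 and Col4a2 encode the chains of the trimer found in nearly all basement membranes. Col4a1 stood at 1008, 953 and 896 CPM in mutant pools, against 774, 778 and 779 CPM in control pools. Control pools agreed closely and every mutant pool lay above them, with a log2 fold change of 0.29 (SE 0.053, edgeR adjusted p = 0.0106).

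Col4a2 stood at 514, 470 and 446 CPM in mutant pools, against 372, 394 and 383 CPM in control pools, a log2 fold change of 0.32 (SE 0.056, edgeR adjusted p = 0.01). Without control pool 1 neither chain passed the threshold (edgeR adjusted p = 0.0506 for Col4a1 and 0.0566 for Col4a2), and Col4a1 also did not without mutant pool 2 (0.0565). Per kilobase of exon, the ratio of Col4a1 to Col4a2 was 1.95 ± 0.0331 in mutants and 1.98 ± 0.0523 in controls (SD, n = 3 each), a log2 difference of -0.02 (two-sided exact permutation test p = 0.4).

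Col4a6 and Col4a5 lie head to head on the X chromosome and encode chains of basement membranes around smooth muscle and beneath some epithelia. Col4a6 (chrX:141165403-141474076) stood at 53.0, 48.6 and 41.3 CPM in mutant pools, against 31.3, 28.5 and 30.3 CPM in control pools. This was the largest rise among the 4 tested type IV chains, 1.58-fold (log2 fold change 0.66, SE 0.092, edgeR adjusted p = 0.0035), and it remained called in all 16 alternatives run, with log2 fold changes from 0.58 to 0.76. One of them left out both pools with almost no Xist (log2 fold change 0.58, edgeR adjusted p = 0.0137).

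Col4a5 stood at 144, 130 and 121 CPM in mutant pools, against 118, 104 and 110 CPM in control pools, and was not called (log2 fold change 0.25, SE 0.071, edgeR adjusted p = 0.0743), although DESeq2 (adjusted p = 0.0252) and edgeR without mutant pool 3 (adjusted p = 0.0493) called it. The ratio of Col4a5 to Col4a6 per kilobase was 2.76, 2.72 and 2.97 in mutant pools, against 3.84, 3.72 and 3.70 in control pools. The groups did not overlap, and the two-sided exact permutation test gave p = 0.1, the smallest that 3 against 3 pools allow. Over the 10 chain pairs compared, the adjusted value was 0.333.

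The largest rises of the family were in Col14a1 and Col8a1. Col14a1 (chr15:55307750-55520803) encodes a fibril-associated collagen that sits on type I fibrils. It stood at 243, 236 and 199 CPM in mutant pools, against 134, 131 and 137 CPM in control pools, a 1.69-fold rise (log2 fold change 0.75, SE 0.071, edgeR adjusted p = 0.000591). Col8a1 (chr16:57624258-57754737) encodes a short-chain network collagen known from vessel walls and from the basement membrane of the cornea. It stood at 56.1, 59.2 and 57.7 CPM in mutant pools, against 39.9, 36.5 and 31.4 CPM in control pools, a 1.61-fold rise (log2 fold change 0.68, SE 0.083, edgeR adjusted p = 0.00175). Both genes were clear of the control range in every mutant pool and remained called in all 16 alternatives run.

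Their closest relatives did not pass the threshold in edgeR with all pools. Col12a1, a fibril-associated collagen related to Col14a1, stood at 354, 288 and 233 CPM in mutant pools, against 214, 217 and 214 CPM in control pools, where mutant pool 1 was far above the others (log2 fold change 0.44, SE 0.122, edgeR adjusted p = 0.0632). It was called without mutant pool 3 (edgeR adjusted p = 0.00832) and with no filter on low counts (0.0447). Col8a2, the second type VIII chain, had a log2 fold change of 0.37 (SE 0.119, edgeR adjusted p = 0.101) with no overlap between groups, and DESeq2 called it higher. That these relatives differed from Col14a1 and Col8a1 was not tested.

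**Figure D3:**
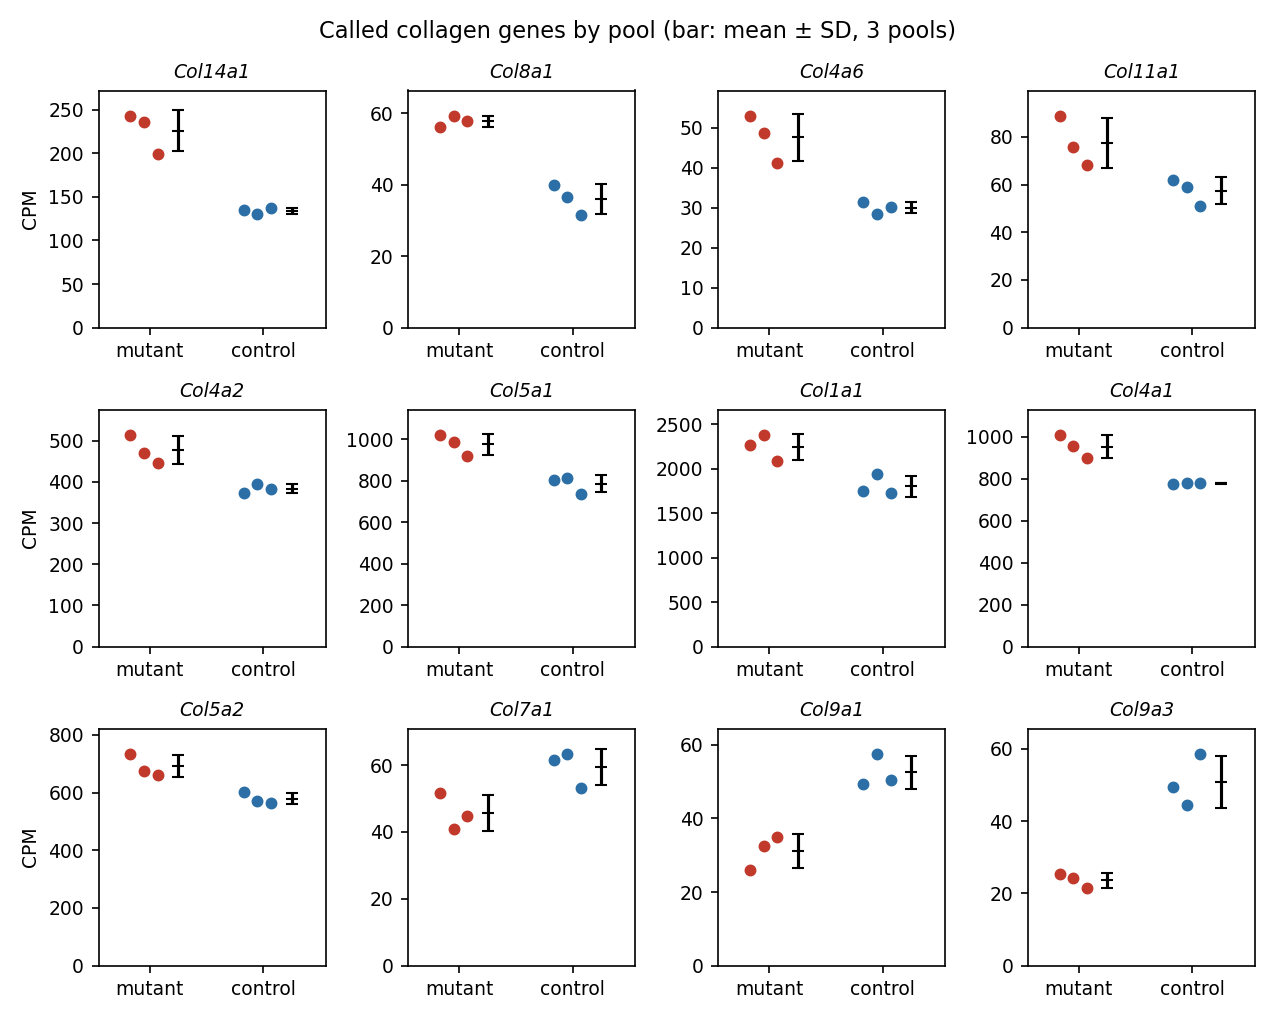
CPM (y axis) in each mutant and control pool for the 12 called collagen genes, ordered from the highest to the lowest log2 fold change; points are pools and bars the mean with its SD over 3 pools. The first 9 genes, Col14a1 to Col5a2, have every mutant pool above every control pool, and Col7a1, Col9a1 and Col9a3 have every mutant pool below.

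Chains of type IX collagen moved unequally. Type IX is a fibril-associated trimer of the chains Col9a1, Col9a2 and Col9a3, best known from the surface of cartilage fibrils. Col9a3 (chr2:180597790-180622189) stood at 25.5, 24.3 and 21.4 CPM in mutant pools, against 49.6, 44.4 and 58.6 CPM in control pools. Mutant pools lay well below all controls, a 2.15-fold decrease (log2 fold change -1.10, SE 0.109, edgeR adjusted p = 0.000685). Its exons overlap those of Tcfl5 on the opposite strand by 234 bases. Tcfl5 had at most 18 reads in any pool and Col9a3 at least 374. The part of the overlap in the Col9a3 counts was not tested.

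Col9a1 (chr1:24177610-24252684) stood at 25.9, 32.4 and 35.1 CPM in mutant pools, against 49.5, 57.5 and 50.5 CPM in control pools, again without overlap. It was 1.68-fold lower (log2 fold change -0.75, SE 0.109, edgeR adjusted p = 0.00411), and Col9a1 and Col9a3 were called lower in all 16 alternatives run. Col9a2 stood at 148, 190 and 191 CPM in mutant pools, against 165, 171 and 171 CPM in control pools. Its pools overlapped and it was not called (log2 fold change 0.06, SE 0.088, edgeR adjusted p = 0.773).

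Per kilobase of exon, Col9a2 was the most abundant of these chains in both groups. The ratio of Col9a1 to Col9a2 per kilobase was 0.126 ± 0.00456 in mutants and 0.221 ± 0.0157 in controls (SD, n = 3 each), a log2 difference of -0.81 with no overlap between groups. The ratio of Col9a3 to Col9a2 was 0.132 ± 0.0297 in mutants and 0.289 ± 0.0401 in controls, a log2 difference of -1.15, also with no overlap. Both gave p = 0.1 in the two-sided exact permutation test, the smallest possible here, and 0.333 adjusted over 10 pairs. The pair of Col9a3 and Col9a2 was chosen after its values were seen.

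**Figure D4:**
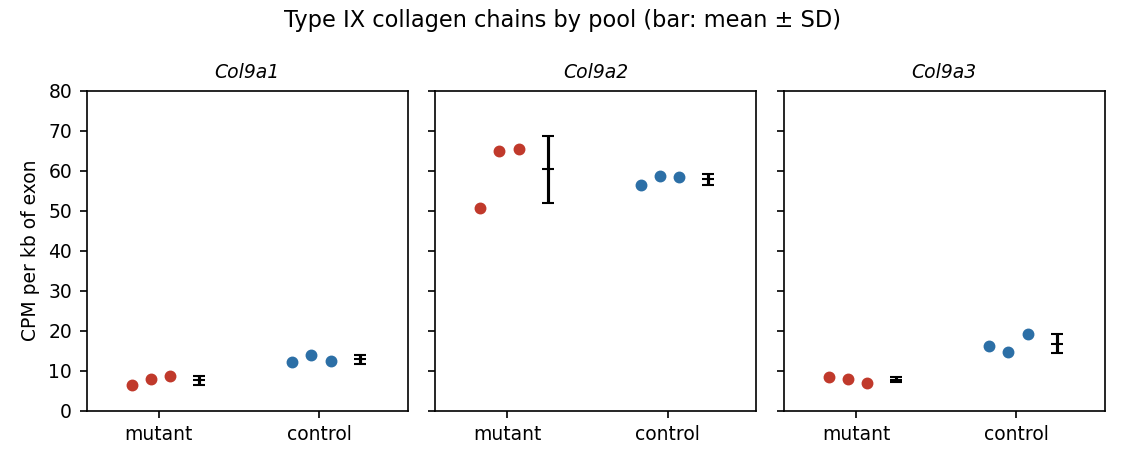
CPM per kb of exon (y axis) of the 3 type IX chains in each mutant and control pool, with the mean and SD over 3 pools. Col9a1 and Col9a3 are lower in all mutant pools than in any control pool, while the mutant and control pools of Col9a2 overlap.

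Col7a1 (chr9:108953586-108984875) encodes the anchoring fibril collagen that ties epithelial basement membranes to the matrix below. It stood at 51.6, 40.8 and 44.8 CPM in mutant pools, against 61.6, 63.4 and 53.3 CPM in control pools. It was lower (log2 fold change -0.38, SE 0.096, edgeR adjusted p = 0.0462) without overlap, close to the threshold. Leaving out control pool 1 (edgeR adjusted p = 0.146), control pool 2 (0.0809), mutant pool 2 (0.155) or mutant pool 3 (0.133) ended the call.

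The remaining collagens were not called by edgeR with all pools. Among them, Col16a1, a fibril-associated collagen, had every mutant pool above every control pool (log2 fold change 0.29, SE 0.086, edgeR adjusted p = 0.0809), and it was called higher by DESeq2 and by edgeR without mutant pool 3. Col18a1, a basement membrane proteoglycan whose end fragment is endostatin, was among the 5 genes with the highest level per kilobase and stood at 747, 723 and 725 CPM in mutant pools, against 735, 684 and 771 CPM in control pools. The mutant values fell within the range of the controls, and the log2 fold change was 0.0035 (SE 0.054, edgeR adjusted p = 0.982). The type VI chains form beaded filaments around cells. Col6a1, Col6a2 and Col6a3 had log2 fold changes of 0.23 (SE 0.081), 0.27 (SE 0.086) and 0.16 (SE 0.065). None of the 6 type VI chains was called by edgeR with all pools, while DESeq2 called Col6a1 (adjusted p = 0.044) and Col6a2 (adjusted p = 0.0111) higher, as did edgeR without mutant pool 3 (adjusted p = 0.0216 and 0.0218), and edgeR without control pool 2 called Col6a4 higher. The 4 transmembrane collagens, Col13a1, Col17a1, Col23a1 and Col25a1, had log2 fold changes between -0.25 and 0.06, and mutant and control pools overlapped for all 4.

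Genes that make, cross-link and surround collagen were examined in 5 lists. Beside them, 3.67% of all genes tested were called higher and 4.28% lower, and the median log2 fold change of all genes tested was 0.00055. Of 20 tested genes for collagen hydroxylation, glycosylation and folding, 4 rose, 0 fell and 16 were not called, and the median log2 fold change was 0.16. Serpinh1, the collagen chaperone of the endoplasmic reticulum, stood at 1261 ± 22.1 CPM in mutants and 1098 ± 30.1 CPM in controls (SD, n = 3 each), a log2 fold change of 0.20 (SE 0.045, edgeR adjusted p = 0.028). The prolyl 3-hydroxylase family genes Leprel1 (log2 fold change 0.73, SE 0.155) and Leprel2 (0.26, SE 0.055) and Sec23a (0.21, SE 0.044), a subunit of the coat that carries procollagen out of the endoplasmic reticulum, also rose. Serpinh1 lost its call when any pool except control pool 2 was left out (edgeR adjusted p = 0.0662 to 0.131), and with the replicate number as a block (0.0736). Leprel1 lost it without control pool 1 or 3 or mutant pool 1 or 2 (0.0508 to 0.0641), Leprel2 without control pool 1 or any mutant pool (0.0538 to 0.0908), and Sec23a without control pool 1 or mutant pool 2 or 3 (0.0543 to 0.0896). P4hb, Ppib and Mia3, also abundant in this list, had log2 fold changes of 0.08, 0.04 and 0.06 and were not called.

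Of 12 tested genes for procollagen processing and cross-linking, 2 rose, 0 fell and 10 were not called, with a median of 0.30. Loxl2, a lysyl oxidase that cross-links collagen, stood at 124 ± 2.23 CPM in mutants and 95.8 ± 2.65 CPM in controls (SD, n = 3 each), and its log2 fold change of 0.37 (SE 0.042, edgeR adjusted p = 0.00129) was called in all 16 alternatives run. Loxl1 had a log2 fold change of 0.31 (SE 0.078, edgeR adjusted p = 0.0431), and each pool left out except control pool 2 ended its call, with edgeR adjusted p from 0.106 without mutant pool 3 to 0.148 without control pool 1, as did total-count scaling (0.056). Bmp1, which cleaves the end of procollagen, Adamts2 and Lox were not called by edgeR with all pools, at -0.12, 0.29 and 0.36 log2. Adamts2 was called without control pool 2 (adjusted p = 0.0446).

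Of 13 tested fibril-associated proteoglycans and matricellular partners, 5 rose, 0 fell and 8 were not called, with a median of 0.42. Tnxb, a tenascin that binds fibrils, had a log2 fold change of 1.02 (SE 0.173, edgeR adjusted p = 0.00847), Fmod, a fibril-binding proteoglycan, 0.59 (SE 0.096, adjusted p = 0.00707) and Fbln2, a fibulin, 0.42 (SE 0.046, adjusted p = 0.00106), and these 3 were called in all 16 alternatives run. Bgn (0.22, SE 0.047) and Sparc (0.25, SE 0.061) also rose. Bgn was not called without control pool 1 or 3 or mutant pool 1 or 2 (edgeR adjusted p = 0.0607 to 0.0879), and Sparc when any pool except mutant pool 3 was left out (0.0628 to 0.117), with total-count scaling (0.056) and with the replicate number as a block (0.0626). Fn1, Postn and Fbln1 were not called, at 0.42, 0.48 and -0.02 log2. Without mutant pool 3, 9 genes of this list were called, Fn1 (adjusted p = 0.0488) and Postn (adjusted p = 0.0218) among them, and Fn1 was also called without control pool 2 (adjusted p = 0.0334).

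Of 12 tested basement membrane partners, 4 rose, 1 fell and 7 were not called, with a median of 0.19. Lamb1 and Lamc1, laminin chains, had log2 fold changes of 0.27 (SE 0.042, edgeR adjusted p = 0.00526) and 0.23 (SE 0.045, edgeR adjusted p = 0.0148). The nidogens Nid1 and Nid2, which link laminin to type IV collagen, had log2 fold changes of 0.29 (SE 0.06) and 0.22 (SE 0.04). Smoc1, a calcium-binding basement membrane protein, fell (log2 fold change -0.40, SE 0.082, edgeR adjusted p = 0.0184). Without control pool 1 the calls of Lamc1 (edgeR adjusted p = 0.068), Nid1 (0.086), Nid2 (0.0566) and Smoc1 (0.0568) were lost and 1 gene of the list was called, while 8 were called without control pool 2 and 2 without mutant pool 3. Nid1 (edgeR adjusted p = 0.0762), Lamc1 (0.062) and Smoc1 (0.0654) also lost their calls without mutant pool 3, Nid1 (0.0629) and Smoc1 (0.0624) without mutant pool 1, Lamc1 (0.0833) without mutant pool 2 and Nid1 (0.0657) without control pool 3. Agrn, Hspg2 and Pxdn were not called, at 0.07, 0.12 and 0.02 log2, and Hspg2 was called without control pool 2 (adjusted p = 0.0174). Of 15 tested collagen receptors and turnover genes, 0 rose, 1 fell and 14 were not called, with a median of 0.13. The gene that fell, Gpr56, encodes an adhesion receptor that binds type III collagen (log2 fold change -0.35, SE 0.061, edgeR adjusted p = 0.0098). Itgb1, Mmp14 and Ddr2 were not called, at 0.11, 0.11 and 0.12 log2.

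**Figure D5:**
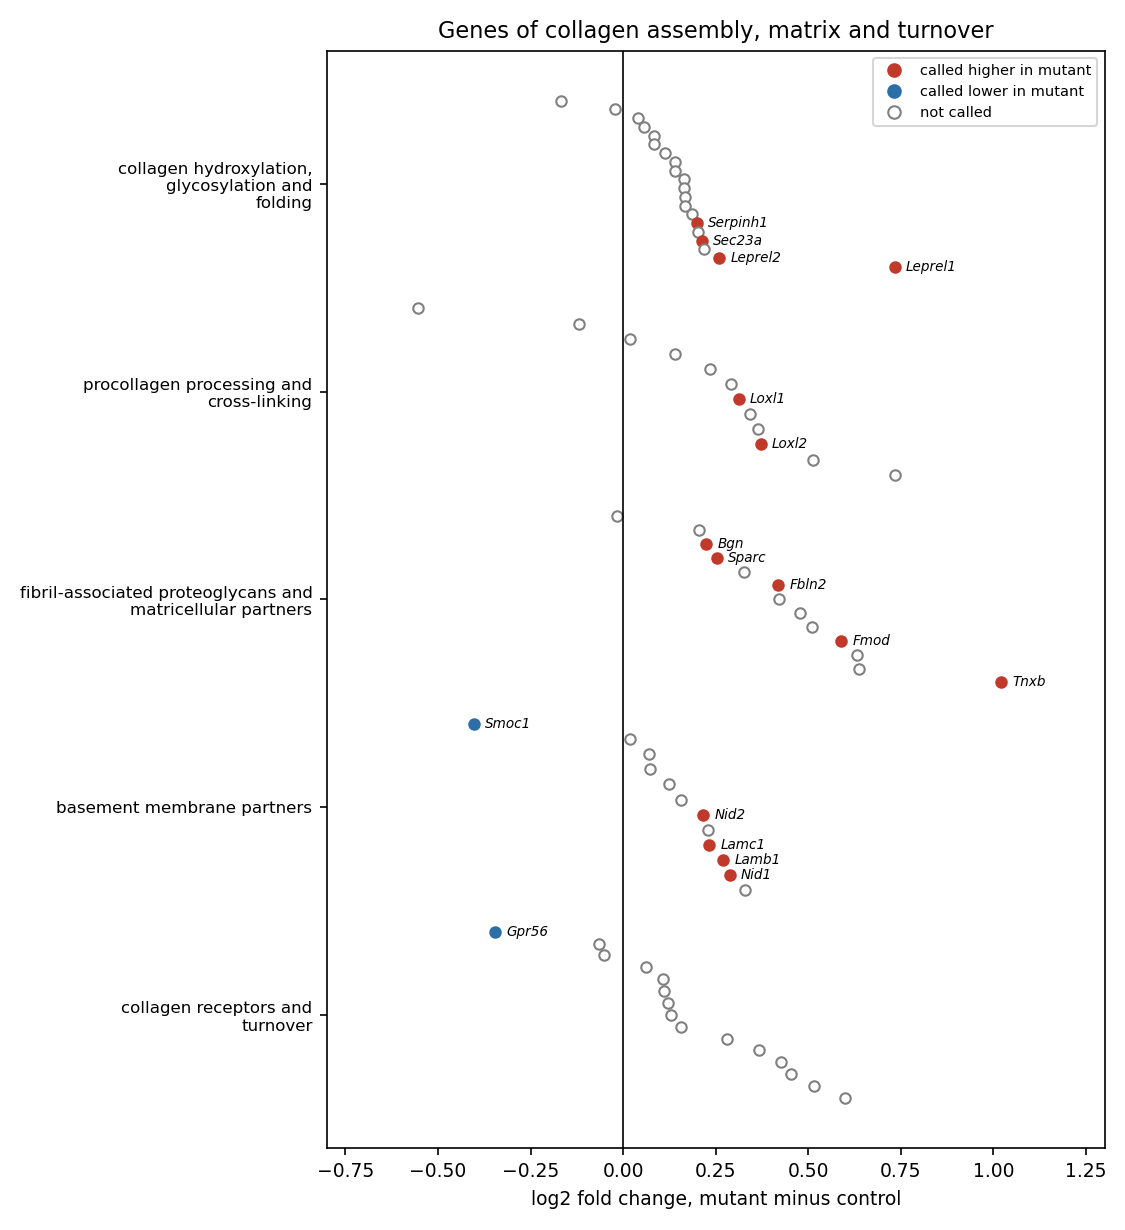
Log2 fold change (mutant minus control, x axis) of each tested gene in the 5 lists of collagen-related genes; filled points were called by edgeR and are named, open points were not. The called genes lie right of 0 except Smoc1 (-0.40) and Gpr56 (-0.35).

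Marker lists of cell types that a pancreas at this stage can hold were read from the same fit. Over all genes tested, 3.67% were called higher and 4.28% lower, and a single call in a short list is not read as a change of the cell type. The mesenchyme list had 1 of 12 tested genes called higher (Barx1) and 0 lower, with summed levels of 2114 to 2199 CPM in mutants and 1948 to 2168 CPM in controls, which overlapped. The list of pericyte and smooth muscle genes had 3 of 9 called higher and 0 lower, with summed levels of 648 to 709 CPM in mutants and 444 to 647 CPM in controls. The highest control sum was that of control pool 2, which stood apart in the listed gene Myh11. Control pools 1 and 3 summed to 486 and 444 CPM. The 3 genes called higher were the pericyte markers Cspg4, Kcnj8 and Abcc9, at log2 fold changes of 0.63, 0.64 and 0.64, and their part in the collagen rises was not tested. Endothelial genes had 0 of 8 called, at 663 to 848 CPM in mutants and 592 to 667 CPM in controls. Mesothelial genes had 0 of 6 called, at 258 to 329 CPM in mutants and 242 to 277 CPM in controls. All 8 endothelial genes had positive log2 fold changes (median 0.22), as did all 6 mesothelial genes (median 0.15). Positive values were also found for 8 of 12 mesenchyme genes (median 0.08) and 7 of 9 pericyte and smooth muscle genes (median 0.23). The median of all genes tested was 0.00055.

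Lists with lower genes were also present. The list of pancreatic epithelium had 1 of 9 called lower (Cdh1) and 0 higher, with summed levels of 2796 to 3475 CPM in mutants and 2364 to 3388 CPM in controls. Of Schwann cell and neural crest genes, Sox10 stood at 5.70 ± 1.498 CPM in mutants and 11.1 ± 1.27 CPM in controls (SD, n = 3 each), a log2 fold change of -0.96 (SE 0.187, edgeR adjusted p = 0.0154; 0.062 without mutant pool 2). Tubb3, a neuronal tubulin, was also called lower (log2 fold change -1.46, SE 0.257, edgeR adjusted p = 0.00991). The chondrocyte and tendon list had 1 of 4 called lower and 0 higher, at 72.3 to 89.0 CPM in mutants and 120 to 129 CPM in controls, most of it from 1 gene. That gene was Acan, the cartilage proteoglycan, at 67.2 ± 5.85 CPM in mutants and 113 ± 2.51 CPM in controls (SD, n = 3 each; log2 fold change -0.75, SE 0.064, edgeR adjusted p = 0.000404). Of the 4 tested genes of the chondrocyte and tendon list, 2 had positive log2 fold changes, and the list median was 0.12. Matn1, a defining cartilage gene, had at most 1 read in any pool. Acan thus fell with Col9a1 and Col9a3, while the cartilage fibril chains Col2a1 and Col11a1 had positive log2 fold changes. The part of these cell types in the type IX values was not tested.

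Lymphatic endothelial genes had 1 of 4 called higher (Pdpn), with Ccl21a listed at 0 in every pool, at 75.1 to 98.1 CPM in mutants and 77.7 to 96.1 CPM in controls. Macrophage genes had 0 of 7 called, at 212 to 243 CPM in mutants and 217 to 250 CPM in controls. The list of stomach and spleen primordium had 1 of 5 called higher (Barx1, which it shares with the mesenchyme list), with Gkn1 at 0 in every pool, at 146 to 166 CPM in mutants and 135 to 197 CPM in controls. Erythroid genes had 6 of 12 called higher and 0 lower, at 1943 to 2672 CPM in mutants and 1705 to 2556 CPM in controls. With their reads taken out of the total, collagens made up 1.61 ± 0.106% of counts in mutants and 1.38 ± 0.0233% in controls (SD, n = 3 each).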

How the data were processed

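RNA of whole pancreas from 3 mutant and 3 control pools was sequenced from 2 to 3 µg of total RNA with an Illumina TruSeq kit, per the labels' protocols. These name Trizol for extraction, while the design text names a column kit. The authors deposited whole-number read counts per gene symbol, not normalized. The submitters' processing notes name STAR, DESeq2, HTSeq 0.6.1p1, cutadapt 1.13 and the build mm10. For the annotation, the strand setting and multiply matching reads, nothing is given in the sources used here, and reads from antisense partners cannot be separated.

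Counts were fitted with edgeR 4.0.16 in R 4.3.3: filterByExpr with a minimum count of 10, TMM scaling, the quasi-likelihood F test with genotype as the only term, and Benjamini-Hochberg adjustment over 14687 genes. Each SE is the absolute log2 fold change over the root of F. CPM uses library totals scaled by TMM. Exon lengths and positions are from GENCODE M21 (GRCm38), with exons of all basic transcripts merged. Intervals given as SD are over pools; nothing says that pools came from separate litters, so p-values measure the spread between these pools. The fit was tested on simulated data with changes of 0.5, 1 and 2 log2. It recovered 75%, 85.7% and 98.4% of them, with 12 false calls. Changes under 0.5 log2, the size of most collagen rises called here, were not simulated.

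The members and lists were chosen with earlier results of these data known. The genes named were all called members, a fixed set (Col1a1, Col1a2, Col3a1, Col4a1, Col4a2, Col18a1), the 5 highest per kilobase and the 3 uncalled members with the lowest adjusted p; of each list, the called genes and up to 3 abundant uncalled ones. Other collagens appear as partners or class examples chosen after their values were seen. Chain ratios used a two-sided exact permutation test. Alternatives were DESeq2 size factors, upper-quartile and total-count scaling, no filter, a filter of 1 CPM in 3 libraries, DESeq2 1.42.0, limma 3.58.1 voom, robust estimation, the replicate number as a block, each pool left out, and both pools with almost no Xist left out. One planned ratio, Col4a3 to Col4a4, was not computed because pools had fewer than 10 reads. Amino acid sequences were not used here. The count for the Schwann cell and neural crest list is not reported here.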

Additional observations from a re-analysis of the deposited data

How the results depend on the processing

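Over all 16 alternatives, Col14a1, Col8a1 and Col4a6 were called higher and Col9a1 and Col9a3 lower. The collagen genes called higher numbered 9 in the fit as reported, 16 with DESeq2's Wald test and 14 with the replicate block, and 4 to 15 with 1 pool left out; those called lower numbered 2 to 3 throughout. The median log2 fold change of the family ran from 0.16 to 0.30. Over the whole table, 1167 genes were called, 629 to 1421 with 1 pool left out and 665 without control pool 3 and mutant pool 1. Without these 2 pools, the lists of hydroxylation and folding, processing and cross-linking, fibril partners and basement membrane partners had 0, 1, 3 and 3 genes called, against 4, 2, 5 and 5 with all pools. With 1 pool left out, these lists had 0 to 4, 1 to 3, 3 to 9 and 1 to 8, and the list of receptors and turnover had 1 to 2. Total-count scaling left 1 gene called in the processing list, and DESeq2 and the replicate block each called 2 in the receptor list, against 1. In edgeR the count of 0 for hydroxylation and folding genes arose with fewer pools, and the cause was not tested. Col11a2 turned to 0.56 log2 without control pool 1, against -0.37 log2 without control pool 3 and mutant pool 1.

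Deviations from the group means of same-numbered mutant and control pools correlated at 0.138, 0.101 and -0.05 across genes. Pools with different numbers correlated at -0.234 to 0.159. With 3 pools per group, these values cannot show whether the replicate numbers pair the pools. With the replicate block, 1138 genes were called in all, and the collagen genes it added to those called higher were Col2a1, Col12a1, Col4a5 (edgeR adjusted p = 0.00478, 0.0478 and 0.0336), Col8a2 and Col16a1. Of the related genes named, the block ended the calls of Serpinh1 (0.0736) and Sparc (0.0626) and brought Fn1 past the threshold (0.0302). Leaving the erythroid list out of the denominator changed no direction in the shares. Plain count ratios differ from ratios per kilobase by a constant factor, so they could not change the log2 differences and are no check. Genes below 1 CPM, at 15.9 to 17.5 reads, carry large counting error.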
